A study of Mus musculus with 6 samples.

Results

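The subject here is 38 genes of macrophages and monocytes, taken as a named list out of 29385 genes measured in 6 mouse heart libraries. Each gene was placed by its textbook role in 1 of 7 classes: 11 general macrophage genes, 5 Fc receptors and their adaptors, 4 genes of growth factor supply and lineage control, 9 genes of resident macrophages, 3 of recruited monocytes, 3 tied to lipid uptake and injury, and 3 lectin or alternative activation genes. Macrophages are phagocytes that live in every tissue. In the heart, long-lived resident cells that carry Lyve1, Timd4 and Folr2 sit beside cells that keep arriving from blood monocytes, which carry Ly6c2 and Plac8. Tissue macrophages depend on the receptor Csf1r and its ligands for survival, and they clear dying cells and shape the matrix after injury.

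All hearts came from mice with altered alleles of Myh6, the gene of the alpha myosin heavy chain, which is the main motor of the adult mouse ventricle. The labels name the alleles RH and RQ without describing them. There were 3 groups of 2 libraries. The RH/+ vehicle group had the RH allele beside an unaltered allele. The RH/RQ vehicle group had the RH and the RQ allele. The treated group had the same RH/RQ genotype and received AAV-hpCas13d, a viral vector for an enzyme of the Cas13d kind, which cuts RNA at sequences set by a guide. Newborns were given the vector or the vehicle and hearts were taken after 12 months. The labels give no promoter or guide for the vector, no sex, and no word on whether both libraries of a group are from different mice, and p-values reflect no more than the spread among the libraries.

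The deposited values are CPM, reads of a gene divided by all reads of its library and scaled to 1e6, and library totals ran from 36269261 to 51017058 reads. A gene with 0 reads could still have up to 0.0588 to 0.0827 CPM, the level of 3 reads, which covers counting error only. Xist, which marks the silenced X chromosome of female cells, was at 279.7 and 265 CPM in RH/+ hearts, 0.274 and 0.0516 CPM in RH/RQ vehicle hearts, and 299 and 326 CPM in treated hearts. The Y-linked gene Ddx3y was at 0 and 0 CPM in RH/+ hearts, 85.2 and 85.2 CPM in RH/RQ vehicle hearts, and 0 and 0 CPM in treated hearts. Genotype or treatment and this sex-linked pattern therefore cannot be told apart in either comparison with RH/RQ vehicle hearts, while RH/+ and treated hearts shared the pattern. Treated replicate 1 stood above replicate 2 for 28 of the 38 genes, against 59% of all genes, with a median difference of 0.18 on the log2 scale. RH/RQ vehicle replicate 1 stood above replicate 2 for 29 of the 38, against 65% of all genes, and RH/+ replicate 1 above replicate 2 for 21, against 47% of all genes.

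Transcripts that define macrophages were present in every library. Adgre1, the F4/80 antigen, was at 11.5 and 10.8 CPM in RH/+ hearts, 16.8 and 15.2 CPM in RH/RQ vehicle hearts, and 13.8 and 14.00 CPM in treated hearts, and Cd68, a lysosomal protein of phagocytes, was at 7.17 and 7.07 CPM in RH/+ hearts, 9.39 and 10.3 CPM in RH/RQ vehicle hearts, and 7.5 and 8.33 CPM in treated hearts. Both genes were lowest in the RH/+ libraries. Divided by the length of annotated exons, the highest level in RH/+ hearts was that of Lyz2, the lysozyme of phagocytes, at 131 CPM per kb. It was followed by Pf4, a chemokine of platelets and resident macrophages, at 16.9 CPM per kb, and by Cbr2, a carbonyl reductase of resident macrophages, at 13.6 CPM per kb. Tyrobp at 13.1 and Fcer1g at 11.3 CPM per kb came next, and the libraries of Cbr2 and Tyrobp overlapped in this order. The recruited genes were near the other end, with Plac8 at 0.742, Ly6c2 at 0.342 and Chil3 at 0.111 CPM per kb, the last being the lowest of all. Resident genes were spread from Pf4 down to Timd4 at 0.893 CPM per kb.

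**Figure D1:**
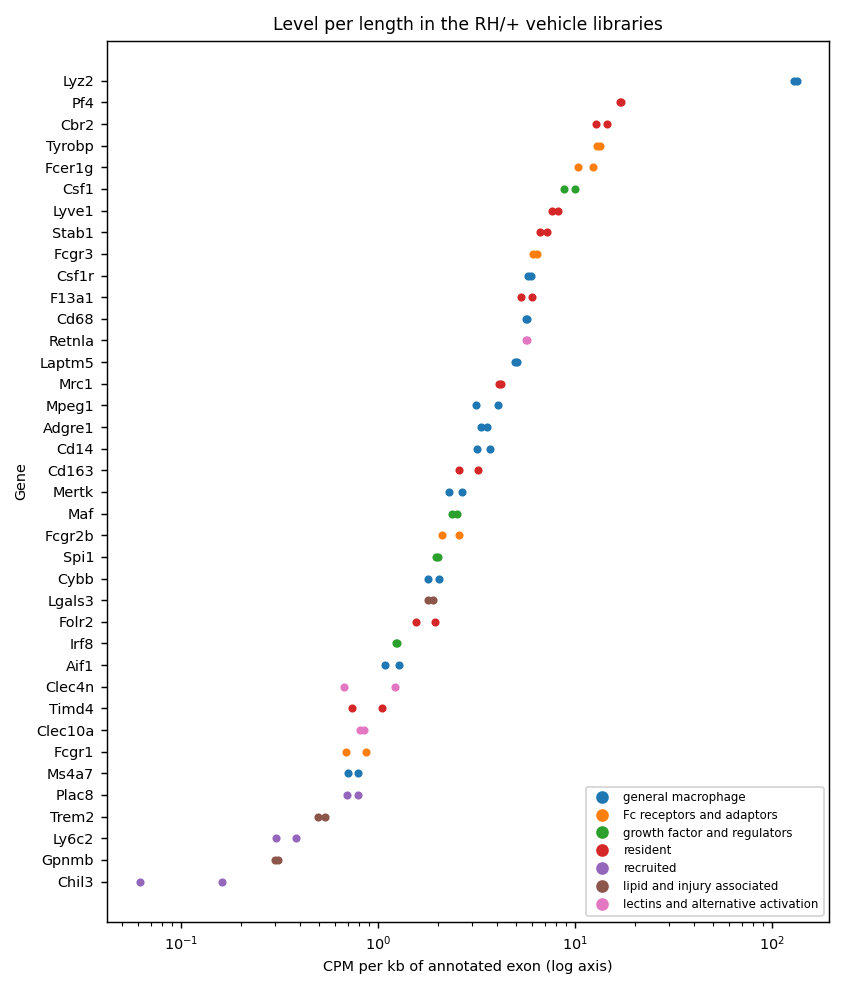
Level of each of the 38 genes in the 2 RH/+ vehicle libraries, as CPM per kb of annotated exon on a log axis, with points for libraries and colours for classes. Lyz2 lies far to the right at a mean of 131 CPM per kb, and the 3 recruited genes lie among the lowest.

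Most of the 38 genes were higher in RH/RQ vehicle than in RH/+ vehicle hearts, by modest amounts. Of the 38, 10 rose and 1, Retnla, fell by limma at an adjusted p under 0.05, against 3.48% and 1.51% of the 16804 genes tested (4.99% in either direction), and all 38 were among the genes tested. With TMM scaling 10 of the 38 again rose and 1 fell, while the background moved to 3.14% and 2.4%. At a p under 0.05 before adjustment 23 were higher and 1 was lower, against 11.3% and 5.78% of all genes. The median log2 fold change of the 38 was 0.39, beside 0.04 over all genes tested, and 33 of them had a value above 0, as had 57.8% of all genes. For 28 of the 38 both RH/RQ libraries lay above both RH/+ libraries, which was so for 30.8% of all genes, and for 3 both lay below, against 18.5%. Summed over the 38 genes, the level was 639 and 655 CPM in RH/+ hearts, 881 and 784 CPM in RH/RQ vehicle, and 814 and 706 CPM in treated hearts. In whole tissue, a change in the number of cells of a type and a change in RNA per cell cannot be told apart. The 10 rises became 4 when RH/+ replicate 1 was left out, 5 for RH/+ replicate 2, 3 for RH/RQ vehicle replicate 1 and 7 for RH/RQ vehicle replicate 2. In the authors' deposited table of this comparison, 8 of the 38 genes were higher and Retnla was lower at an adjusted p under 0.05.

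**Figure D2:**
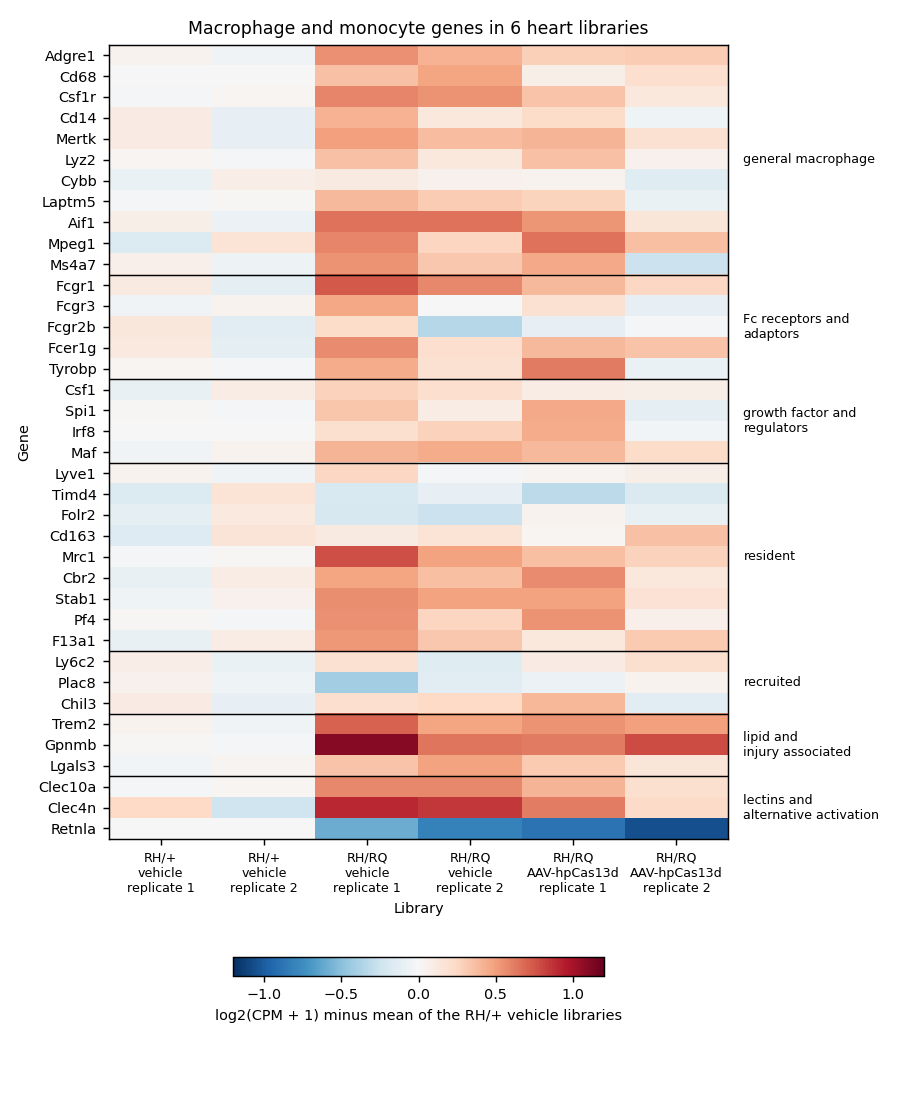
Each cell gives log2(CPM + 1) of a gene in a library minus the mean of the RH/+ vehicle libraries, for the 38 genes in 7 classes and the 6 libraries. The RH/RQ vehicle columns are red for most genes, the recruited genes are pale, and Retnla is blue in all 4 RH/RQ libraries.

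Among the general macrophage genes, Csf1r, Adgre1 and Aif1 rose and the other 8 were not called. Csf1r, the receptor for the growth factor that keeps macrophages alive (chromosome 18, 61100598 to 61132149, plus strand, GRCm38), was at 33.2 and 34.3 CPM in RH/+ hearts, 51.2 and 49.6 CPM in RH/RQ vehicle hearts, and 42.98 and 36.8 CPM in treated hearts. Both RH/RQ vehicle libraries lay above the other 4. Its log2 fold change against RH/+ was 0.56 (limma SE 0.11, adjusted p = 0.00178), and it was called in 16 of 17 alternative analyses (adjusted p from 0.000153 to 0.0995 by limma, edgeR or DESeq2), leaving out any library included. Aif1, a calcium-binding protein of ruffling phagocytes, was at 1.94 and 1.65 CPM in RH/+ hearts, 3.39 and 3.4 CPM in RH/RQ vehicle hearts, and 3.03 and 2.08 CPM in treated hearts. The RH/RQ vehicle libraries were nearly equal and the highest, with a log2 fold change of 0.65 (limma SE 0.18, adjusted p = 0.0397). Adgre1 had a log2 fold change of 0.48 (limma SE 0.13, adjusted p = 0.0374) in this comparison. The calls of Aif1 and Adgre1 were lost when any of the 4 libraries compared was left out, and that of Aif1 also with DESeq2. Of the exons of Csf1r, 15.1% lie opposite exons of Hmgxb3, and with no strand setting stated such reads cannot be assigned with certainty.

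The remaining general genes had log2 fold changes from 0.08 to 0.43 and did not pass. Mertk, a receptor that recognises dying cells, had 0.43 (limma adjusted p = 0.0886), and Mpeg1, a pore-forming protein of phagocytes, had 0.42 (limma adjusted p = 0.109). Laptm5, a lysosomal membrane protein of blood-derived cells, had 0.35 (limma adjusted p = 0.14), and Cd14, the co-receptor for bacterial lipopolysaccharide, had 0.27 (limma adjusted p = 0.452). Lyz2 had 0.24 (limma adjusted p = 0.238) and is close in sequence to Lyz1, so its count is less certain. Cd68 had 0.41 (limma adjusted p = 0.136) and Ms4a7, a tetraspan protein of tissue macrophages, had 0.43 (limma adjusted p = 0.278). Cybb, the catalytic subunit of the phagocyte oxidase, had the smallest value of this class, at 0.08 (limma adjusted p = 0.839). For 10 of the 11 genes both RH/RQ vehicle libraries were above both RH/+ libraries, Cybb being the exception, against 30.8% of all genes.

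Of the 5 genes of Fc receptors and their adaptors only Fcgr1 was called. Fcgr1, the high-affinity receptor for IgG (chromosome 3, 96282909 to 96293969, minus strand), was at 2.23 and 1.78 CPM in RH/+ hearts, 3.98 and 3.48 CPM in RH/RQ vehicle hearts, and 2.92 and 2.56 CPM in treated hearts. Its log2 fold change against RH/+ was 0.66 (limma SE 0.18, adjusted p = 0.0331), with RH/RQ vehicle hearts highest and no overlap between these groups. DESeq2 did not call it, and limma did not once any of the 4 compared libraries was removed. Fcgr3, a low-affinity activating receptor, had 0.23 (limma adjusted p = 0.496), and Fcgr2b, the inhibitory receptor, had -0.06 (limma adjusted p = 0.902). The libraries of these receptors overlapped between groups, and their genes share long stretches of sequence, so reads may be divided between them with error. The signalling adaptors Fcer1g and Tyrobp had log2 fold changes of 0.38 (limma adjusted p = 0.174) and 0.31 (limma adjusted p = 0.408).

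In the class of growth factor supply and lineage control, the transcription factor Maf rose. Maf, which maintains the mature macrophage state and is also active in other cell types, was at 19.4 and 20.8 CPM in RH/+ hearts, 27.05 and 27.8 CPM in RH/RQ vehicle hearts, and 26.6 and 23.5 CPM in treated hearts. The RH/+ libraries were the lowest, and the log2 fold change of RH/RQ vehicle hearts was 0.43 (limma SE 0.12, adjusted p = 0.0322). Its call was lost without any of the 4 libraries compared. Csf1, the ligand of Csf1r, made largely by stromal cells, was at 46.3 and 52.6 CPM in RH/+ hearts, 59.9 and 56.8 CPM in RH/RQ vehicle hearts, and 52.6 and 51.8 CPM in treated hearts and had a log2 fold change of 0.24 (limma adjusted p = 0.21). Spi1, the gene of PU.1, the master transcription factor of the myeloid lineage, had 0.21 (limma adjusted p = 0.624), and Irf8, its partner in monocyte development, had 0.24 (limma adjusted p = 0.494). In all 4 genes both RH/RQ vehicle libraries lay above both RH/+ libraries, which was so for 30.8% of all genes.

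Of the 9 genes placed in the resident class by textbook role, Mrc1, Stab1 and F13a1 rose and the other 6 were not called. The median log2 fold change of the 9 was 0.40. Mrc1, the mannose receptor CD206 (chromosome 2, 14229392 to 14332057, plus strand), was at 26.1 and 26.6 CPM in RH/+ hearts, 45.6 and 37.3 CPM in RH/RQ vehicle hearts, and 34.1 and 32.1 CPM in treated hearts. Its log2 fold change of 0.63 (limma SE 0.11, adjusted p = 0.00124) was called in 15 of 17 alternative analyses (adjusted p from 4.25e-05 to 0.116 by limma, edgeR or DESeq2), the exceptions being the analyses without RH/RQ vehicle replicate 1 and without a filter on low genes. Stab1, a scavenger receptor that takes up modified proteins (chromosome 14, 31139013 to 31168641, minus strand), was at 68.3 and 73.7 CPM in RH/+ hearts, 105 and 99.5 CPM in RH/RQ vehicle hearts, and 99.6 and 79.9 CPM in treated hearts. Its log2 fold change was 0.52 (limma SE 0.10, adjusted p = 0.00305), and its call was lost without RH/+ replicate 1. F13a1, a subunit of the clotting factor that cross-links fibrin, was at 35.8 and 40.7 CPM in RH/+ hearts, 55.3 and 48.00 CPM in RH/RQ vehicle hearts, and 41.6 and 47.8 CPM in treated hearts, with a log2 fold change of 0.42 (limma SE 0.11, adjusted p = 0.0252), lost when replicate 1 of RH/+ or of RH/RQ vehicle was left out. All 3 genes were lowest in both RH/+ libraries, and which cells held their transcripts was not tested.

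The genes most often used to define the resident lineage gave other values. Lyve1, a receptor for hyaluronan, was at 23.8 and 22.3 CPM in RH/+ hearts, 27.6 and 22.8 CPM in RH/RQ vehicle hearts, and 23.6 and 24.3 CPM in treated hearts, and its groups overlapped. Folr2, a folate receptor, was at 2.39 and 2.98 CPM in RH/+ hearts, 2.21 and 2.06 CPM in RH/RQ vehicle hearts, and 2.78 and 2.45 CPM in treated hearts, with the RH/RQ vehicle libraries the lowest of the 6. Timd4, a receptor for phosphatidylserine on dying cells, was at 1.6 and 2.28 CPM in RH/+ hearts, 1.57 and 1.73 CPM in RH/RQ vehicle hearts, and 1.35 and 1.58 CPM in treated hearts, also with overlap. None of the 3 passed, with log2 fold changes of 0.12 (limma adjusted p = 0.682), -0.23 (limma adjusted p = 0.572) and -0.14 (limma adjusted p = 0.76). Cd163, the receptor for haemoglobin and haptoglobin, had 0.13 (limma adjusted p = 0.695), Cbr2 had 0.42 (limma adjusted p = 0.0846) and Pf4 had 0.40 (limma adjusted p = 0.157). Of the exons of Folr2, 63.1% lie opposite exons of Gm10602, which makes its count uncertain. Lyve1, Stab1 and Mrc1 are also expressed by lymphatic endothelium, whose 6 listed markers summed to 146 and 136 CPM in RH/+ hearts, 130 and 130 CPM in RH/RQ vehicle, and 153 and 136 CPM in treated hearts. Most of that sum was Prox1, the transcription factor of that endothelium and also present in heart muscle, at 103 and 91.9 CPM in RH/+ hearts, 74.2 and 77.5 CPM in RH/RQ vehicle hearts, and 82.1 and 90.3 CPM in treated hearts. Ccl21a, 1 of the 6, gave 10.6 CPM of the sum in treated replicate 1 and at most 0.0516 CPM in any other library. Prox1 fell in RH/RQ vehicle hearts with a log2 fold change of -0.35 (limma adjusted p = 0.0343). The other 4 markers tested were not called, with 0.31 (limma adjusted p = 0.196) for Flt4, 0.41 (limma adjusted p = 0.157) for Reln, 0.27 (limma adjusted p = 0.434) for Mmrn1 and -0.02 (limma adjusted p = 0.969) for Pdpn. For Flt4, Reln and Mmrn1 both RH/RQ vehicle libraries lay above both RH/+ libraries, against 30.8% of all genes. The median of the 5 markers was 0.27, beside 0.04 over all genes, and their part in the values of Stab1 and Mrc1 was not tested.

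None of the 3 recruited monocyte genes was called in any comparison by limma, and their levels were low. Ly6c2, the surface antigen of inflammatory monocytes, was at 1.05 and 0.827 CPM in RH/+ hearts, 1.2 and 0.748 CPM in RH/RQ vehicle hearts, and 1.08 and 1.21 CPM in treated hearts, from 29 to 61 reads a library. Plac8, a small protein of blood monocytes and other leukocytes, was at 1.26 and 1.1 CPM in RH/+ hearts, 0.627 and 0.98 CPM in RH/RQ vehicle hearts, and 1.08 and 1.24 CPM in treated hearts, from 32 to 48 reads. Chil3, a secreted chitinase-like lectin of monocytes and alternatively activated cells, was at 0.263 and 0.10 CPM in RH/+ hearts, 0.353 and 0.387 CPM in RH/RQ vehicle hearts, and 0.551 and 0.0791 CPM in treated hearts, from 3 to 20 reads. Ly6c2 overlapped between RH/+ and RH/RQ vehicle hearts, Plac8 was lowest in both RH/RQ vehicle libraries, and Chil3 was above RH/+ in both of them. The log2 fold changes of RH/RQ vehicle against RH/+ hearts were 0.02 (limma SE 0.18, adjusted p = 0.977), -0.28 (limma SE 0.17, adjusted p = 0.442) and 0.22 (limma SE 0.18, adjusted p = 0.593) in that order. The 1 CPM added before taking logs shrinks fold changes at such low levels, so these cannot be set beside those of higher genes. In the authors' deposited table they were -0.001 (SE 0.54), -0.61 (SE 0.53) and 0.98 (SE 1.01). Before adjustment 0 of the 3 had a p under 0.05 by limma in this comparison, and edgeR and DESeq2 called 0 of them. The difference between resident and recruited classes was not tested. Summed over the class, recruited genes stood at 2.57 and 2.03 CPM in RH/+ hearts, 2.18 and 2.11 CPM in RH/RQ vehicle, and 2.70 and 2.53 CPM in treated hearts. The counts of Ly6c2 and Chil3 are less certain because each has a near-identical neighbour.

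**Figure D3:**
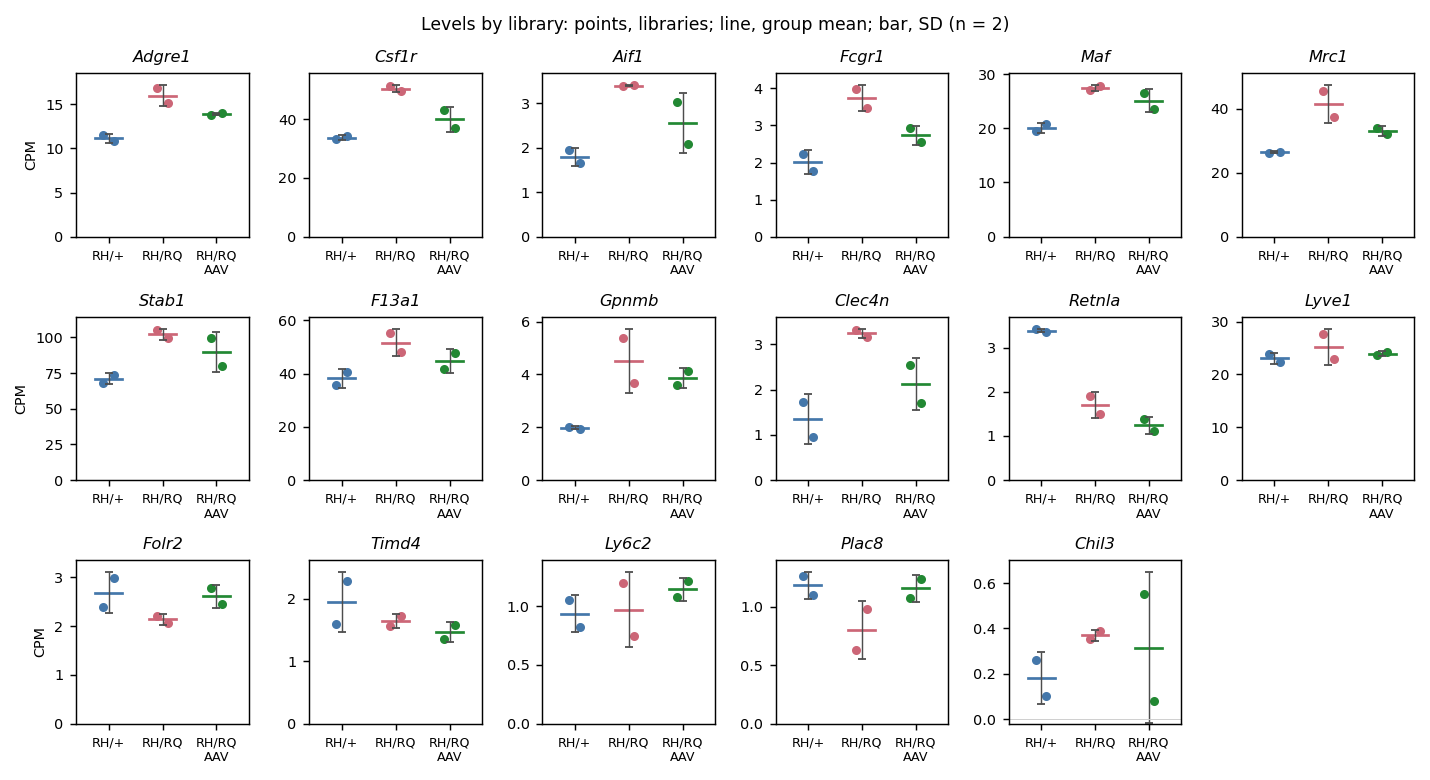
CPM of the 11 genes called in any comparison and of 6 resident and recruited examples, with points for libraries, lines for group means and bars for the SD of 2 libraries. Mrc1, Csf1r, Stab1 and Gpnmb are lowest in both RH/+ libraries, Retnla is highest there, and Lyve1 and Ly6c2 overlap between RH/+ and RH/RQ vehicle hearts.

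Of the 3 genes tied to lipid uptake and injury, Gpnmb rose. It encodes a transmembrane glycoprotein of lysosome-rich macrophages. Gpnmb (chromosome 6, 49036546 to 49070929, plus strand), was at 2.02 and 1.95 CPM in RH/+ hearts, 5.37 and 3.66 CPM in RH/RQ vehicle hearts, and 3.61 and 4.14 CPM in treated hearts. All 4 RH/RQ libraries lay above both RH/+ libraries, which differed little from each other. The log2 fold change of RH/RQ vehicle hearts was 0.87 (limma SE 0.19, adjusted p = 0.00582), called in 15 of 17 alternative analyses (adjusted p from 0.00225 to 0.224 by limma, edgeR or DESeq2) and not without RH/RQ vehicle replicate 1 or without a filter on low genes. Trem2, a lipid-sensing receptor that signals through Tyrobp, was at 2.65 and 2.43 CPM in RH/+ hearts, 4.76 and 3.92 CPM in RH/RQ vehicle hearts, and 4.14 and 3.98 CPM in treated hearts. All 4 RH/RQ libraries again lay above both RH/+ libraries, but the log2 fold change of 0.59 (limma SE 0.18, adjusted p = 0.054) did not pass. Lgals3, the galactose-binding lectin galectin-3, also made by other injured cells, had 0.41 (limma adjusted p = 0.207).

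The lectin and alternative activation genes moved in both directions. Clec4n, the fungal sensor dectin-2, was at 1.73 and 0.952 CPM in RH/+ hearts, 3.31 and 3.17 CPM in RH/RQ vehicle hearts, and 2.54 and 1.71 CPM in treated hearts. The RH/RQ vehicle libraries were the highest, and the log2 fold change was 0.88 (limma SE 0.20, adjusted p = 0.00828), lost without RH/+ replicate 2. Clec10a, a lectin for galactose-type sugars, was at 2.34 and 2.46 CPM in RH/+ hearts, 4.08 and 4.05 CPM in RH/RQ vehicle hearts, and 3.5 and 2.87 CPM in treated hearts, and its log2 fold change of 0.58 (limma SE 0.18, adjusted p = 0.0608) did not pass although its groups did not overlap. Retnla, a secreted protein induced by interleukin-4 in macrophages and also made in adipose tissue (chromosome 16, 48842551 to 48844461, plus strand), was at 3.41 and 3.36 CPM in RH/+ hearts, 1.9 and 1.5 CPM in RH/RQ vehicle hearts, and 1.38 and 1.11 CPM in treated hearts. It was highest in both RH/+ libraries. Its log2 fold change in RH/RQ vehicle hearts was -0.70 (limma SE 0.18, adjusted p = 0.0196), and the call was lost without RH/+ replicate 1, RH/+ replicate 2 or RH/RQ vehicle replicate 2. Adipocyte markers summed to 0.788 and 7.22 CPM in the RH/+ libraries, and to at most 0.501 CPM in the other 4, where Adipoq had at most 1 read. Plin1 and Cfd, the 2 adipocyte markers tested, fell in RH/RQ vehicle hearts by limma, where 1.51% of all genes fell. Their log2 fold changes lay from -1.24 to -0.69, and edgeR called both while DESeq2 called neither. In treated against RH/+ hearts only edgeR called them lower. Retnla was at 3.41 and 3.36 CPM in those RH/+ libraries, and the part of adipose tissue in its fall was not tested.

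Promoter windows of 4 genes are shown because they cover both directions seen: Mrc1, Stab1 and Gpnmb, which rose, and Retnla, which fell. Each runs from 250 bases before to 50 bases after a RefSeq transcription start on GRCm38.p6, 5′ to 3′ on the gene's strand. Capitals mark GAGGAA, the core recognised by PU.1, or TTCNNNNGAA, the form bound by STAT6, on either strand.
Mrc1 (chr2:14229164-14229463, plus strand): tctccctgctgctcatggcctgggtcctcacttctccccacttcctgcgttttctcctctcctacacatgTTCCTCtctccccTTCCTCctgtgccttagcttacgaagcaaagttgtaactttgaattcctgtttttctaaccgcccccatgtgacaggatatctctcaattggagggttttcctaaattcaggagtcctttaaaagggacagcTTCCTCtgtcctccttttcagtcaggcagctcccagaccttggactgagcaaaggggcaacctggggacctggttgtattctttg
Stab1 (chr14:31168592-31168891, minus strand): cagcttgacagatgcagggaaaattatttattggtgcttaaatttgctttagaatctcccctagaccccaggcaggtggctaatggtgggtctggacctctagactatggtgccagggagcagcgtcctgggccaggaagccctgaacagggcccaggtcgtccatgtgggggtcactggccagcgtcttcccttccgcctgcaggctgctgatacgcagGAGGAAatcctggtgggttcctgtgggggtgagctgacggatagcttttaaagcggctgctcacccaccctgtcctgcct
Gpnmb (chr6:49036268-49036567, plus strand): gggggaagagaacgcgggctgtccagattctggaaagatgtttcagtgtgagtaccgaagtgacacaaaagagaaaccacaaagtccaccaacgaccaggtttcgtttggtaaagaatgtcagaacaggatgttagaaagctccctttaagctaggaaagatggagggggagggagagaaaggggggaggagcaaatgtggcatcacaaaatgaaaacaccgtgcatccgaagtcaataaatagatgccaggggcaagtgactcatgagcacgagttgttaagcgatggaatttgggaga
Retnla (chr16:48842359-48842658, plus strand): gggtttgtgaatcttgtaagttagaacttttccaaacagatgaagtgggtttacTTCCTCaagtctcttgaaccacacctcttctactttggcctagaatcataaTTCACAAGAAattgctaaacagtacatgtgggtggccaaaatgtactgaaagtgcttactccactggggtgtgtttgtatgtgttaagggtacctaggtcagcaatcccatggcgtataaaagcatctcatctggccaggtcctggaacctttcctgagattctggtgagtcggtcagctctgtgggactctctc
The window of Mrc1 holds 3 PU.1 cores, that of Stab1 1, that of Gpnmb 0, and that of Retnla 1 together with 1 STAT6 form. Of the 38 genes, 29 had a RefSeq window by symbol, and 16 of these 29 (55.2%) held the PU.1 core in at least 1 window, against 31.3% of all 27025 genes. The STAT6 form was in 5 of the 29 (17.2%), against 8.01% of all genes, and the motifs searched do not overlap in the windows shown. These matches describe letters in a window and were not tested as binding sites.

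Treated RH/RQ hearts were next compared with RH/RQ vehicle hearts, a group of the same genotype that differs in treatment and in the sex-linked pattern. This comparison shares the RH/RQ vehicle libraries with the one above. Treated hearts showed no called change in any of the 38 genes by limma, where 1.22% of all genes rose and 0.827% fell (2.05% in either direction, and 1.02% and 1.17% with TMM scaling). A p under 0.05 before adjustment was reached downward by 3 of the 38 and upward by 0, against 3.92% and 8.56% of all genes. The median log2 fold change was -0.13, beside 0.04 over all genes, and 6 of the 38 were above 0, as were 60.5% of all genes. For 15 of the 38 both treated libraries lay below both RH/RQ vehicle libraries, against 14.4% of all genes, and for 2, Folr2 and Plac8, both lay above, against 26.2%. None of the lower values passed. The lowest log2 fold change was that of Clec4n, at -0.45 (limma SE 0.20, adjusted p = 0.332), followed by Fcgr1 at -0.34 (limma adjusted p = 0.46) and Ms4a7 at -0.34 (limma adjusted p = 0.536). Csf1r had -0.33 (limma SE 0.11, adjusted p = 0.128) and Mrc1 -0.31 (limma SE 0.11, adjusted p = 0.216). On reads, edgeR and DESeq2 each called Csf1r lower, with adjusted p values of 0.0365 and 0.0198, and limma called it too after scaling by TMM, by RLE or to nuclear genes. Over all 17 alternatives its adjusted p ran from 0.0198 to 0.431. In the authors' deposited table of this comparison, 0 of the 38 genes had an adjusted p under 0.05. The median of the 38 was -0.26 without treated replicate 1, -0.05 without treated replicate 2 and -0.22 by edgeR.

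Class by class, treated and vehicle RH/RQ hearts differed in the median by -0.19 for general genes, -0.04 for Fc receptors, -0.08 for growth factor supply and lineage control, -0.10 for resident genes, 0.13 for recruited genes, -0.16 for lipid and injury genes and -0.28 for lectins on the log2 scale. Gpnmb had -0.16 (limma adjusted p = 0.789), Trem2 -0.07 (limma adjusted p = 0.916), Stab1 -0.19 (limma adjusted p = 0.467) and Retnla -0.27 (limma adjusted p = 0.592). Folr2 had 0.20 (limma adjusted p = 0.702) and Plac8 0.26 (limma adjusted p = 0.579). The SE of these values lay between 0.10 and 0.20. All of them were measured between groups that differ in the sex-linked pattern.

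Treated RH/RQ hearts were also compared with RH/+ hearts, the pair that shared the sex-linked pattern, and this comparison shares libraries with both of the others. Gpnmb was higher and Retnla lower by limma, so that 1 of the 38 rose and 1 fell, against 2.33% and 0.53% of all genes (2.86% in either direction). With TMM scaling the background was 1.41% and 0.976%. Gpnmb had a log2 fold change of 0.70 (limma SE 0.19, adjusted p = 0.0398) and was called in 7 of 17 alternative analyses (adjusted p from 0.0206 to 0.37 by limma, edgeR or DESeq2). It was not called by edgeR or DESeq2, under TMM or RLE scaling, or without any of the 4 libraries compared. Retnla had -0.97 (limma SE 0.18, adjusted p = 0.00224) and was called in 16 of 17 alternative analyses (adjusted p from 0.000338 to 0.217 by limma, edgeR or DESeq2), each analysis that left out a library among them, and in the authors' deposited table it was the 1 member with an adjusted p under 0.05. Its levels were 3.41 and 3.36 CPM in RH/+ hearts and 1.38 and 1.11 CPM in treated hearts.

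The median log2 fold change of the 38 between treated and RH/+ hearts was 0.21, beside 0.08 over all genes, or 0.11 beside -0.002 with TMM scaling, with 32 of the 38 above 0 by CPM, as were 69.7% of all genes. For 20 of the 38 both treated libraries lay above both RH/+ libraries, against 35% of all genes, and for Retnla and Timd4 both lay below, against 9.66%. Trem2 had 0.52 (limma SE 0.18, adjusted p = 0.134) and Mpeg1 0.51 (limma SE 0.15, adjusted p = 0.0618), neither of which passed. Without treated replicate 2, 4 genes were called higher, namely Mpeg1, Tyrobp, Cbr2 and Stab1. Without treated replicate 1 or RH/+ replicate 1 the count was 0, and it was 2 without either RH/RQ vehicle library. Without RH/+ replicate 2 Mpeg1 was called in place of Gpnmb. Tyrobp, the adaptor shared by Trem2 and Fc receptors, was at 8.87 and 8.57 CPM in RH/+ hearts, 12.2 and 10.03 CPM in RH/RQ vehicle hearts, and 14.01 and 8.23 CPM in treated hearts, with the treated libraries on either side of both other groups.

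**Figure D4:**
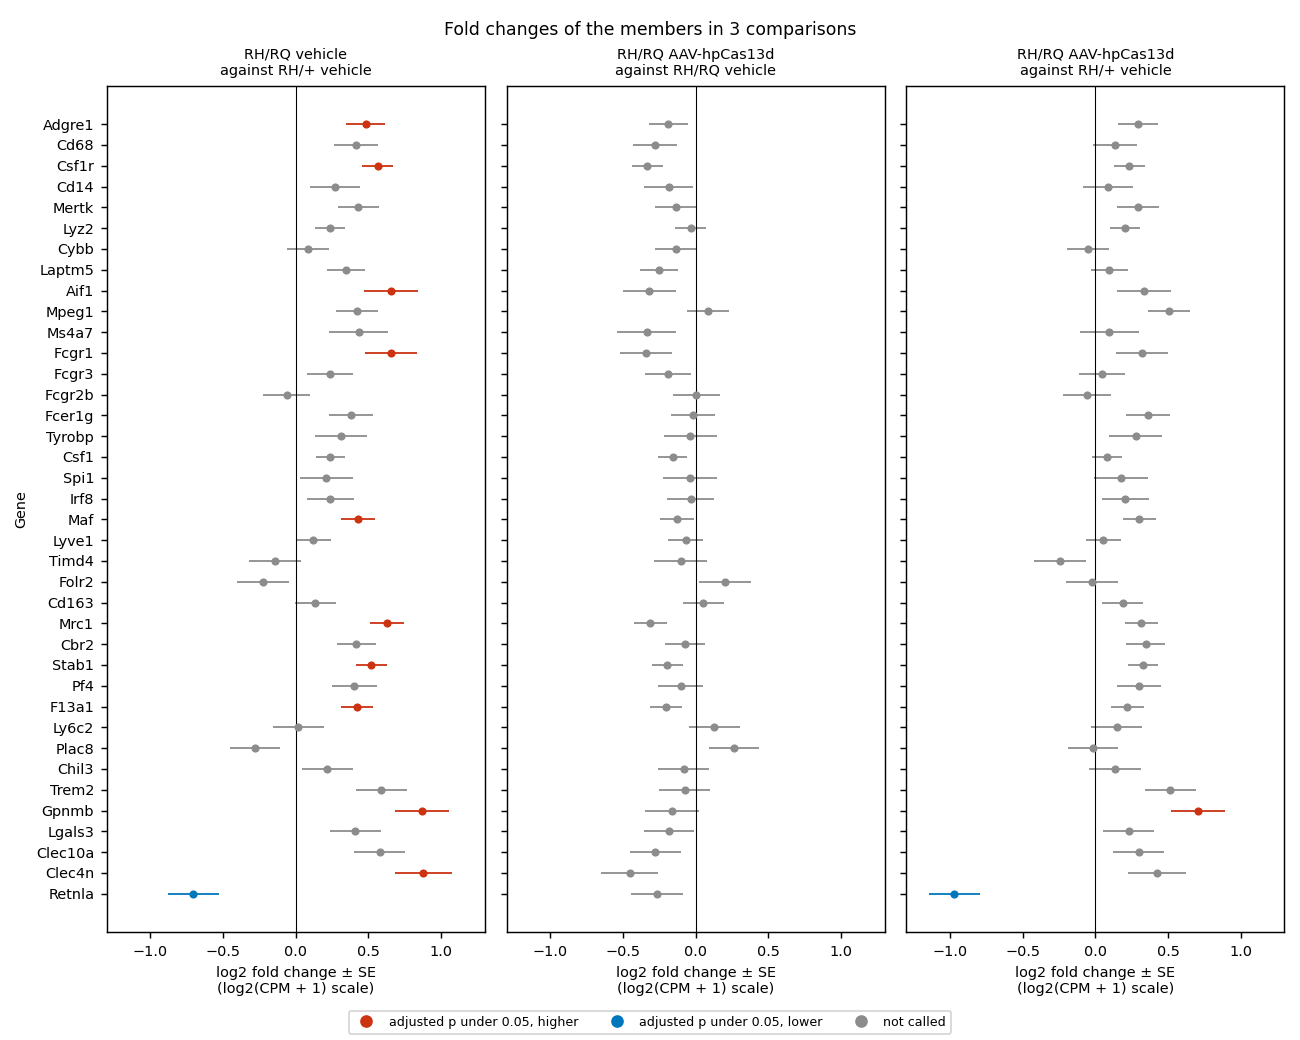
Log2 fold changes with SE for the 38 genes in the 3 comparisons, on the log2(CPM + 1) scale, with red and blue for genes called higher and lower by limma. The left panel has 10 red points and 1 blue, the middle panel has neither, and the right panel has Gpnmb and Retnla.

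**Figure D5:**
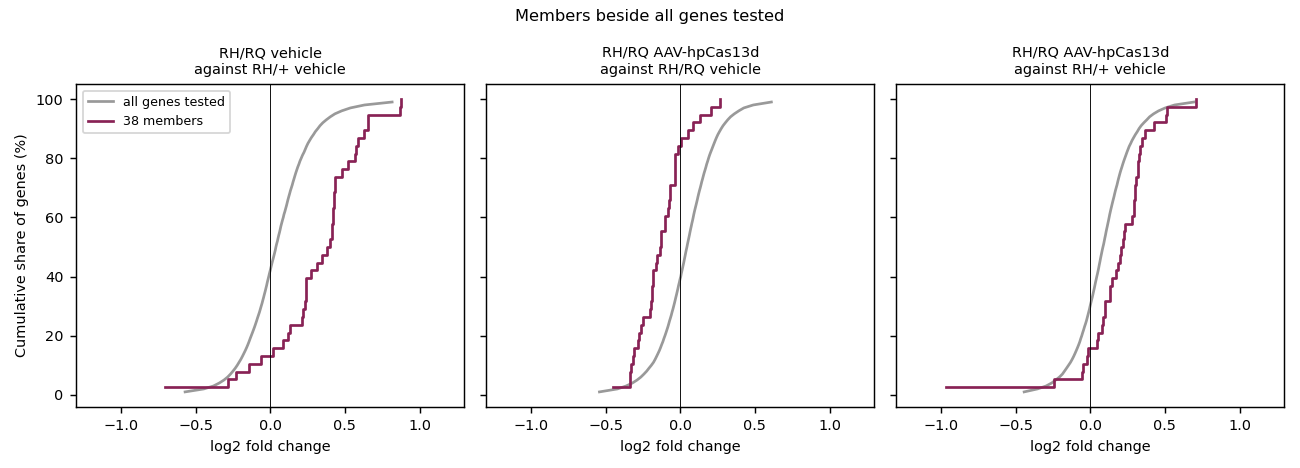
Cumulative share of genes, in percent, against log2 fold change in each comparison, for the 38 genes and for all genes tested between the percentiles 1 and 99. The curve of the 38 genes lies right of all genes in the left panel, with medians of 0.39 and 0.04, and left of them in the middle panel, with -0.13 and 0.04.

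A further list of 40 macrophage genes, also compiled with earlier results known, gave 4 rises and 0 falls among 39 tested in RH/RQ vehicle against RH/+ hearts by limma, against 3.48% and 1.51% of all genes, with a median of 0.28 beside 0.04 over all genes. Cx3cr1, the fractalkine receptor of resident macrophages and patrolling monocytes, was at 3.44 and 2.68 CPM in RH/+ hearts, 7.55 and 10.2 CPM in RH/RQ vehicle hearts, and 5.82 and 4.72 CPM in treated hearts. It had a log2 fold change of 1.28 (limma SE 0.18, adjusted p = 7.9e-05), and treated hearts lay between the other groups. Fcrls, an Fc receptor-like scavenger protein, had 0.82 (limma adjusted p = 0.00249), Vsig4, a complement receptor of resident macrophages, had 0.65 (limma adjusted p = 0.0403), and Cyth4, an exchange factor of small GTPases in leukocytes, had 0.49 (limma adjusted p = 0.0407). DESeq2 did not call Vsig4. The complement genes C1qa, C1qb and C1qc, made chiefly by macrophages, had 0.21, 0.32 and 0.35 and were not called. Ptprc, the CD45 antigen of all leukocytes, was at 14.5 and 14.2 CPM in RH/+ hearts, 15.6 and 13.2 CPM in RH/RQ vehicle hearts, and 15.00 and 13.6 CPM in treated hearts, with a log2 fold change of 0.00 (limma adjusted p = 0.995). Il34, the other ligand of Csf1r, had 0.20 (limma adjusted p = 0.703). In treated against RH/RQ vehicle hearts 0 of the 39 were called by limma, 3 having a higher and 5 a lower value at an unadjusted p under 0.05 (8.56% and 3.92% of all genes), whereas edgeR and DESeq2 each called Cx3cr1 and Fcrls lower. Against RH/+ hearts only Axl, a receptor for dying cells found in many cell types, was called by limma, at 0.44 (limma adjusted p = 0.0113), and by DESeq2 but not by edgeR.

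Of 15 further monocyte genes 13 were tested. By limma 3 rose in RH/RQ vehicle against RH/+ hearts and 0 fell, against 3.48% and 1.51% of all genes. Thbs1, Ace and Vcan rose, at 1.60 (limma adjusted p = 2.3e-08), 0.73 (limma adjusted p = 6.59e-05) and 0.85 (limma adjusted p = 0.00013). These encode a thrombospondin, the angiotensin-converting enzyme and a matrix proteoglycan, and all 3 are also made by stromal or endothelial cells of the heart. Ccr2, the chemokine receptor by which monocytes enter tissue, was at 3.94 and 3.56 CPM in RH/+ hearts, 5.8 and 5.49 CPM in RH/RQ vehicle hearts, and 5.07 and 4.61 CPM in treated hearts and had 0.49 (limma adjusted p = 0.111). With treatment Thbs1, 1 of the 13, fell against RH/RQ vehicle hearts, at -0.55 (limma adjusted p = 0.0241), where 0.827% of all genes fell. Thbs1 and Ace, 2 of the 13, stood above RH/+, at 1.05 (limma adjusted p = 2.68e-05) and 0.44 (limma adjusted p = 0.018), where 2.33% of all genes rose. By edgeR and DESeq2 Vcan also fell with treatment, where limma gave -0.46 (limma adjusted p = 0.0608), and Ace was not called against RH/+ hearts.

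Markers of other cell types moved with some of these groups, and their part in the values above was not tested. Fibroblast markers summed to 974 and 1043 CPM in RH/+ hearts, 1711 and 1571 CPM in RH/RQ vehicle, and 1638 and 1409 CPM in treated hearts. By limma 5 of 8 rose in RH/RQ vehicle hearts, against 3.48% of all genes, led by Col1a1 at 1.68 (limma adjusted p = 1.25e-09). With treatment Col1a1 and Col3a1, chains of fibrillar collagen, fell against RH/RQ vehicle hearts, at -1.17 (limma adjusted p = 9.21e-07) and -1.15 (limma adjusted p = 8.97e-08), also by edgeR and DESeq2. By limma these were 2 of the 8, against 0.827% of all genes. Against RH/+ hearts 6 of the 8 were higher in treated hearts by limma, 3 by edgeR and 4 by DESeq2. The shares of all genes were 2.33%, 1.48% and 1.45% in that order. Cardiomyocyte markers summed to 44592 and 48185 CPM in RH/+ hearts, 40204 and 42528 CPM in RH/RQ vehicle, and 41910 and 41881 CPM in treated hearts. Of 6 tested, 0 were called by limma in any comparison. In RH/RQ vehicle hearts 4 lay below RH/+ in both libraries, against 18.5% of all genes. By limma 2 were lower there at an unadjusted p under 0.05, against 5.78% of all genes. The median of the 6 there was -0.19, and edgeR called Tnnt2, a thin-filament protein, lower, while DESeq2 called Tnnt2, Actc1 and Pln lower. Over all genes edgeR called 2.34% and DESeq2 2.76% lower there. In treated against RH/+ hearts DESeq2 called Actc1 lower. Neutrophil markers summed to between 7.77 and 10.2 CPM in RH/+ hearts, 5.80 and 7.41 CPM in RH/RQ vehicle, and 11.6 and 15.8 CPM in treated hearts. Of 5 tested, S100a9 and S100a8, subunits of calprotectin, rose in treated against RH/RQ vehicle hearts, at 1.30 (limma adjusted p = 0.000522) and 0.79 (limma adjusted p = 0.0208). By limma 1.22% of all genes rose there. In RH/RQ vehicle against RH/+ hearts edgeR and DESeq2 called S100a9 lower, where limma gave -0.66 (limma adjusted p = 0.067), and no tool called either gene between treated and RH/+ hearts. The granule genes Ngp, Camp and Ltf had at most 4 reads in any library. For T and NK cells 0 of 13 tested genes were called in either comparison with RH/RQ vehicle hearts by limma, edgeR or DESeq2. By limma 2 were lower in RH/RQ vehicle than RH/+ hearts at an unadjusted p under 0.05, against 5.78% of all genes. Cd8a was lower in treated than in RH/+ hearts, at -0.75 (limma adjusted p = 0.0305), where 0.53% of all genes fell. No B cell, mast cell, platelet or endothelial marker was called by limma in any of the 3 comparisons. At an unadjusted limma p under 0.05, 3 of 8 B cell markers were higher in treated than in RH/RQ vehicle hearts, against 8.56% of all genes. Of these 4 lists, edgeR called 0 genes and DESeq2 called 1, Kdr, lower in treated than in RH/RQ vehicle hearts. Among 7 dendritic cell genes tested, Itgax, which macrophages also express, was higher than in RH/+ in both RH/RQ groups, at 0.58 (limma adjusted p = 0.0444) with vehicle and 0.69 (limma adjusted p = 0.0224) with treatment, and edgeR and DESeq2 called neither. By limma 3.48% and 2.33% of all genes were higher in those comparisons. Endothelial markers summed to 869.9 and 919.8 CPM in RH/+ hearts, 1029 and 960.5 CPM in RH/RQ vehicle, and 954 and 870.2 CPM in treated hearts.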

How the data were processed

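RNA captured on poly-T beads was sequenced in 6 heart libraries, 2 per group, grouped by the labels. HISAT2, HTSeq, DESeq2 and mm10 are named in the submitters' processing notes, with no roles or versions. Annotation and strand setting are not given in the sources used here. The authors deposited CPM values per gene in 3 tables of 4 libraries each. Per the file headers, the deposited tables also hold for each gene p-values, a score of the test, the log2 fold change and its error, and a mean signal. All CPM values were whole multiples of 1 read (100% of values, tolerance 0.001), so reads were recovered.

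The tables were joined to 29385 genes, and 0 sample columns were left unmatched. Log2(CPM + 1) was fitted with limma 3.58.1 (limma-trend, R 4.3.3) over all 6 libraries with 3 group means, on 16804 genes passing filterByExpr of edgeR with a minimum count of 10. Fold changes are on this scale, which understates those of low genes. The SE and p-value of a gene drew mostly on a spread shared over genes, with 19.4 prior and 3 residual degrees of freedom. P-values were adjusted by the Benjamini-Hochberg method over all genes tested, and calls used 0.05. Alternatives were edgeR 4.0.16 (quasi-likelihood) and DESeq2 1.42.0 on reads, TMM or RLE factors, CPM without mitochondrial genes, other filters and pseudocounts, a replicate block, the 4 libraries of a comparison alone, and each library left out. The fit was tested on simulated data, with changes in genes of at least 1 CPM and 1 common spread for all genes. Limma recovered 52.2% of 1.5-fold changes in either comparison with RH/RQ vehicle hearts, and 58.2% in treated against RH/+ hearts. It recovered 98.5% to 100% of 2-fold changes. A gene that was not called may therefore still differ by 1.5-fold. For genes below 1 CPM, such as Chil3, the simulation gives no recovery, so larger differences may also go uncalled. Gene positions and exon lengths are from GENCODE on GRCm38 (mm10), matched by symbol.

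Values per library are given for called genes and for the resident and recruited examples, and the others mainly by fold changes. The members and gene lists were chosen with earlier results of these data known. Replicate 1 and replicate 2 follow accession order. Totals of 36269261 to 51017058 reads set the counting precision.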

Additional observations from a re-analysis of the deposited data

How the results depend on the processing

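In RH/RQ vehicle against RH/+ hearts, 10 of the 38 genes were higher and 1 lower, with 838 calls over all genes. Without a filter on low genes these became 0, 0 and 57, and leaving out a library gave 3 to 14, 0 to 1 and 393 to 1195. In treated against RH/RQ vehicle hearts, 0 of the 38 were lower, but 1, Csf1r, was under edgeR, DESeq2, TMM, RLE and CPM without mitochondrial genes. All-gene calls there were 344, with 15 without a filter and 155 to 661 without a library. In treated against RH/+ hearts, 1 gene was higher. It became 0 under edgeR, DESeq2, TMM, RLE, no filter and a pseudocount of 5, 2 with a mean of at least 1 CPM or only the 4 libraries compared, and 0 to 4 without a library. The 1 lower gene became 0 without a filter, and 480 calls became 7, or 206 to 744 without a library. Tyrobp there ranged from -0.075 without treated replicate 1 to 0.63 without treated replicate 2, beside 0.28 with all libraries. The causes were not tested.

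Taking the first digit of the sample titles as a replicate block gave 14 higher and 1 lower, 0 and 0, and 3 and 1 of the 38 in the 3 comparisons, with 1173, 567 and 715 calls over all genes. Differences between same-numbered libraries correlated across genes at 0.13, -0.02 and 0.07 between pairs of groups, so the numbers were not taken to pair the libraries.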

Other observations

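Ccl21a, a chemokine of lymphatic endothelium and lymph nodes that draws T cells and dendritic cells, was at 0.0263 and 0.0251 CPM in RH/+ hearts, 0.0392 and 0.0516 CPM in RH/RQ vehicle hearts, and 10.6 and 0.0264 CPM in treated hearts. Only treated replicate 1 held more than trace amounts, and the gene did not pass the filter on low genes. In the same library B cell markers summed to 26.7 CPM, against 16.5 to 19.7 CPM in the other 5. T and NK cell markers summed to 12.5 CPM there, against 7.55 to 12.8 CPM in the other 5. Dendritic cell markers summed to 36.3 CPM there, against 33.4 to 39.3 CPM in the other 5. Tyrobp and Chil3 were the highest of the 6 in that library, and so were Cbr2, Mpeg1, Spi1 and Irf8. Lyz2 was level there with RH/RQ vehicle replicate 1, at 219.88 and 219.83 CPM.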
